A study of Mus musculus with 2 samples.

Results

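The genes described here encode the proteins of the cytosolic ribosome and the factors that drive it: ribosomal proteins of the large and small subunit, initiation factors and elongation factors. They were chosen by name. A probe set, the group of probes that reports a transcript on the array, was a member if its only gene symbol began with Rpl or Rps followed by a digit or a p, with Eif1 to Eif6, or with Eef1 or Eef2, the kinase families Rps6k and Eif2ak being left out. This gave 247 of the 34945 probe sets with a single gene symbol, and 104 of 18193 genes. They were 26 large subunit genes (48 probe sets), 24 small subunit genes (57), 43 initiation factor genes (120) and 11 elongation factor genes (22). A name rule also takes in a few genes with another role: Rps15a-ps6 is a pseudogene, Rps19bp1 binds a ribosomal protein, Eef2k is a kinase, Eef1akmt1, Eef1akmt2, Eef1aknmt and Eef2kmt are methyltransferases, and Eef1e1 belongs to the complex that holds tRNA synthetases together.

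The series compared the mammary gland of female CD1 mice on the day of forced weaning, at day 10 of lactation, which is day 0 of involution, with the gland 1 day later. All dams had been bought at 6 weeks of age and mated with CD1 males, and all litters had been set to 6 pups. For each day, RNA from 5 mice was combined into a pool, and each biotin-labelled pool was read on an Affymetrix mouse array, so there were 2 arrays, no replicate and no error for any value. Every difference below is therefore a difference between 2 pools, and its spread between mice is unknown.

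The ribosome consists of a small subunit, which reads the messenger RNA, and a large subunit, which joins the amino acids. Initiation factors bring the start tRNA, the messenger RNA and the small subunit together, and elongation factors bring each further tRNA and move the ribosome along. The lactating gland secretes large amounts of milk protein, and involution, the regression that follows weaning, begins with the end of milk removal. The messenger RNAs of ribosomal proteins and of several elongation factors start with a run of pyrimidines, the terminal oligopyrimidine (TOP) tract, through which their translation is controlled together.

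Values are signals of the MAS 5 software, and a log2 ratio is day 1 over day 0, so a negative ratio is a lower signal on day 1. Signals under a floor of 77.7, the median of all signals, were raised to it. A gene counted as measured where at least 1 of its signals exceeded this floor, and was read from its probe set of highest mean signal. This held for 99 of the 104 members, of which 96 exceeded it on each array. The other 5 (Rpl39l, Rps15a-ps6, Rps16, Eif2s3y and Eef2kmt) were at the floor on both. Both arrays had the same trimmed mean signal of 250, but day 0 had a median signal of 94.2 and a highest signal of 108570, and day 1 of 60.1 and 40090. The share of probe sets above the floor was 55.4% on day 0 and 44.5% on day 1. Over all 13239 measured genes the median log2 ratio was -0.12, and the scale on which a ratio of 0 is set differed between ways of scaling the arrays: centring each array on its median moved the median of all genes by 0.62, scaling on the hybridisation controls by 1.10, loess by 0.12 and quantile normalization by 0.10. Of all genes at least 2-fold different, 43.8% were higher on day 1 as deposited, against 84.6% after median centring, 95.7% with the hybridisation controls, 53.4% with loess, 50.2% with quantile normalization, 58.4% with the higher floor and 31.6% with the lower floor. The tissue matched its label: 8 of 8 markers of secretory epithelium were measured. As deposited, all 8 were at least 2-fold lower on day 1 (summed signal 515201 and 209601), with log2 ratios from -1.72 (Xdh) to -1.08 (Elf5). The hybridisation controls had a median log2 ratio of -1.16, and the markers were not read under other scalings. Csn3, 1 of the 8, had the highest signal of the day 1 array (40090). As deposited, 4 of 5 luminal epithelial markers were at least 2-fold higher (14724 and 60986). Of 5 measured macrophage markers 2 were at least 2-fold higher (Cd14, 3817 and 29011, and Cd68, 173 and 508) and 1 was at least 2-fold lower (C1qa, 1729.5 and 737). The part of these shifts in the ratios of the members was not tested. In whole tissue, fewer cells of a type and less RNA per cell cannot be told apart.

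Ribosomal proteins were lower on day 1 by a small and even amount as deposited, initiation factors spread to both sides of 0, and the elongation factor class had the lowest median, through the enzymes and Eef1e1 that the name rule takes in. Without these, the 5 elongation factor genes proper had a median of -0.32. The median log2 ratio was -0.42 for the 47 measured ribosomal protein genes, 0.12 for the 42 initiation factor genes and -0.64 for the 10 elongation factor genes. As deposited, 3 of 99 members (3.03%) were at least 2-fold lower and 2 (2.02%) at least 2-fold higher, where 13.3% and 10.4% of all genes were. With median centring 0 of 100 members were lower and 17 higher, beside 670 and 3687 of all 12947 genes measured there. With the hybridisation controls 0 of 99 members were lower and 40 higher, beside 285 and 6398 of all 12959 genes. At 1.5-fold, 25 members (25.3%) were lower, against 27.2% of all genes, and 10 (10.1%) were higher, against 20.4%. The 5 genes past 2-fold were Eef1e1, Eef2k and Rpl41 on the lower side and Eif4e3 and Eef1akmt2 on the higher side. Of 217 measured probe sets of members, 10 were at least 2-fold lower and 6 higher. Of all 22699 measured probe sets, 2856 (12.6%) and 2238 (9.86%) were past those limits.

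**Figure D1:**
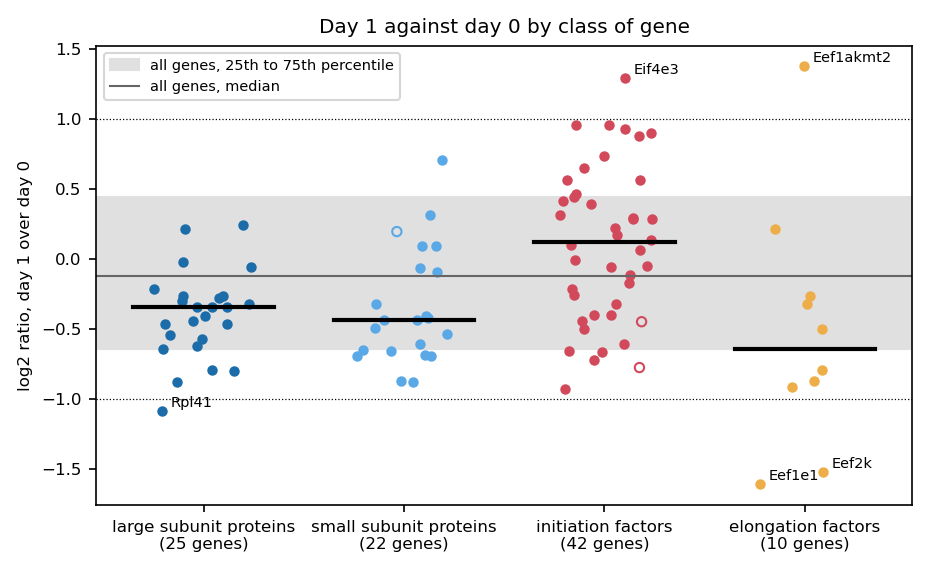
Log2 ratio of day 1 over day 0 for each measured gene as deposited, by class; each point is 1 gene, open points are bounds with 1 array at the floor, black bars are class medians, and the grey band holds the middle of all 13239 genes. The medians are -0.34 (large subunit), -0.44 (small subunit), 0.12 (initiation) and -0.64 (elongation), and the dotted lines mark 2-fold; after median centring the medians of the large, small and elongation classes lie above 0.

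Of the ribosomal protein genes, 40 of 47 (85.1%) had a ratio below 0, against 56.7% of all genes, and 36 lay below the median of all genes. Their middle ratios were closely packed, from -0.63 to -0.24, a width of 0.40 on the log2 scale against 1.08 for all genes. Only 1 of the ribosomal protein genes (2.13%) was 2-fold lower, against 13.3% of all genes, and none was 2-fold higher, against 10.4%. The large subunit had a median of -0.34 with 23 of 25 genes below 0, and the small subunit a median of -0.44 with 17 of 22 below 0. These signs depended on the scaling: with median centring the medians were 0.27 and 0.21, and with the hybridisation controls 0.79 and 0.73. The ribosomal median minus that of all genes was -0.30 as deposited, -0.28 with median centring, -0.25 with the hybridisation controls, -0.20 with loess, -0.02 with quantile normalization and 0.01 when probe sets whose name marks them as shared between transcripts were left out.

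**Figure D2:**
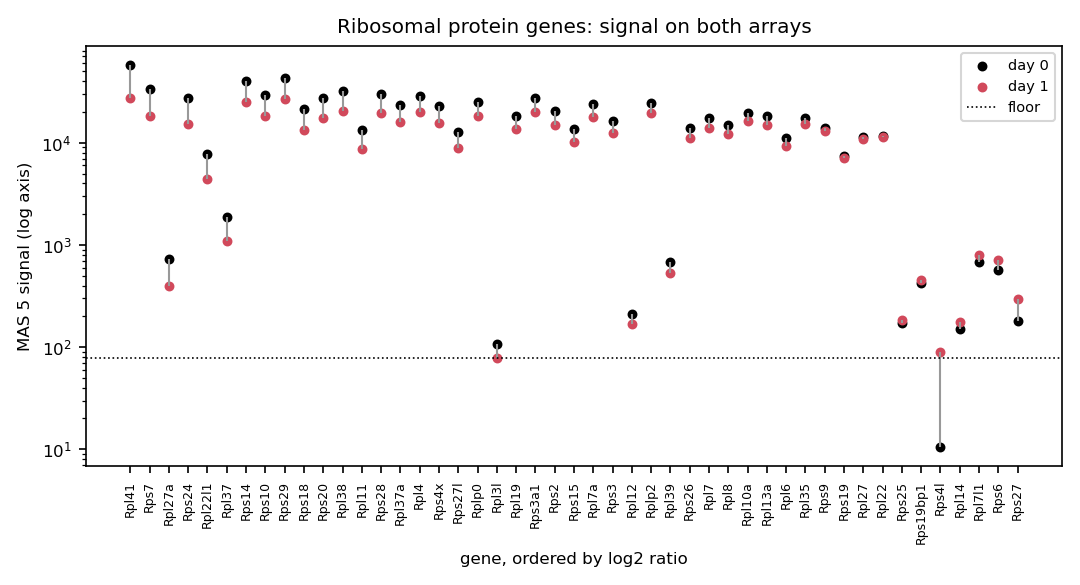
MAS 5 signal of the 47 measured ribosomal protein genes on day 0 (black) and day 1 (red) on a log axis, ordered by log2 ratio, with the floor of 77.7 as a dotted line. The signals of most genes lie above 5000 and are lower on day 1, while genes on the right, such as Rps6 (572 and 712), are read by dim probe sets; with median centring or the hybridisation controls most of these ratios lie above 0.

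Among large subunit genes, Rpl41, whose product is a very short basic peptide, had a signal of 58241 on day 0 and 27495 on day 1, a log2 ratio of -1.08 (2.12-fold lower). Its 4 probe sets did not move alike: the other bright probe set went from 35145 to 14941, while the dim ones went from 262 to 215 and from 152 to 138, ratios of -0.29 and -0.14. The 2-fold difference of Rpl41 therefore rests on its bright probe sets, both of which carry the shared mark. It was under 2-fold with loess (-0.72), the mean of all probe sets (-0.68), median centring (-0.43), quantile normalization (-0.30) and without shared probe sets (-0.14), and on the other side of 0 with the hybridisation controls (0.080). Rpl27a went from 731 to 398 (-0.88), Rpl37 from 1876 to 1086 (-0.79), and Rpl38 from 32200 to 20607 (-0.64).
Rpl22l1, a paralog that can take the place of Rpl22 in the ribosome, went from 7752 to 4461 (-0.80), while Rpl22 had 11532 and 11347 (-0.02). The paralogs thus differed by 0.77 on the log2 scale as deposited, by 0.98 with quantile normalization and by 0.88 with loess. Another probe set of Rpl22 disagreed with the one used, at 0.73.

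The stalk proteins of the large subunit, which draw factors to the ribosome, were close to the class median. Rplp0 went from 25183 to 18239.9 (-0.47) and Rplp2 from 24700 to 19508 (-0.34). Rpl13a, which is often taken as a reference gene, went from 18109 to 15100.3 (-0.26), and its 4 probe sets lay between -0.28 and 0.18. At the upper end stood Rpl35 (17669 and 15228, -0.21), Rpl27 (11386 and 10941, -0.06), Rpl14 (151 and 175, 0.22) and Rpl7l1, a relative of Rpl7 (679 and 806, 0.25). The ratio of Rplp0 turned with the scaling, from -0.47 as deposited to 0.05 with quantile normalization and 0.18 with median centring.

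Among small subunit genes, Rps7 went from 33314 to 18117 (-0.88), Rps24 from 27593 to 15115 (-0.87), Rps14 from 40158 to 24846 (-0.69), Rps10 from 29379 to 18188 (-0.69) and Rps29 from 43212 to 26826 (-0.69). These were the 5 lowest of the subunit, and none reached 2-fold. All 6 measured probe sets of Rps24 were lower on day 1, from -1.17 to -0.15. At the other end were Rps27 (182 and 297, 0.71), Rps6, the substrate of the S6 kinases (572 and 712, 0.32), Rps19bp1 (425 and 454, 0.10), Rps25 (171 and 183, 0.09) and Rps19 (7383 and 7055, -0.07). Of these, only Rps19 was read by a probe set with a signal above 1000 on either array.

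Paralogs known from restricted tissues had low signals. Rpl3l, the striated muscle form of Rpl3, had 108 on day 0 and 77.9 on day 1, which is just above the floor (-0.46). Rpl39l had 62.8 and 65, both under the floor. Rps4l had 10.5 on day 0 and 89.1 on day 1, at least 1.15-fold higher. Rps27l, the widely expressed paralog of Rps27, had 12627 and 8981 (-0.49).

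The ratio of ribosomal proteins varied with the brightness of the probe set. All 53 ribosomal probe sets with a mean signal above 10000 were lower on day 1, with a median of -0.46. Of 15 between 1000 and 10000, 14 were lower, with a median of -0.28, and of 20 dimmer ones 10 were lower and 10 higher, with a median of -0.03. Across the 88 ribosomal probe sets that exceeded the floor on each array, the log2 ratio had a Pearson correlation of -0.47 and a Spearman correlation of -0.45 with mean log2 signal. These points share the same 2 arrays.

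Bright probe sets of other genes were lower too. Of 152 other probe sets above 10000, 110 were lower on day 1, with a median of -0.63, whereas the median of 2844 others between 1000 and 10000 was 0.19. By gene, 35 of 35 ribosomal protein genes with a mean signal above 5000 had a ratio below 0 (median -0.44), against 180 of 308 other genes (median -0.19). On day 1, 6 ribosomal probe sets lay above 50% of the highest signal of the array, and on day 0 only 1 did. Leaving out all probe sets above that limit gave a ribosomal median of -0.41, but this kept most ribosomal probe sets above 10000. The part of brightness in the ribosomal ratios was not tested.

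**Figure D3:**
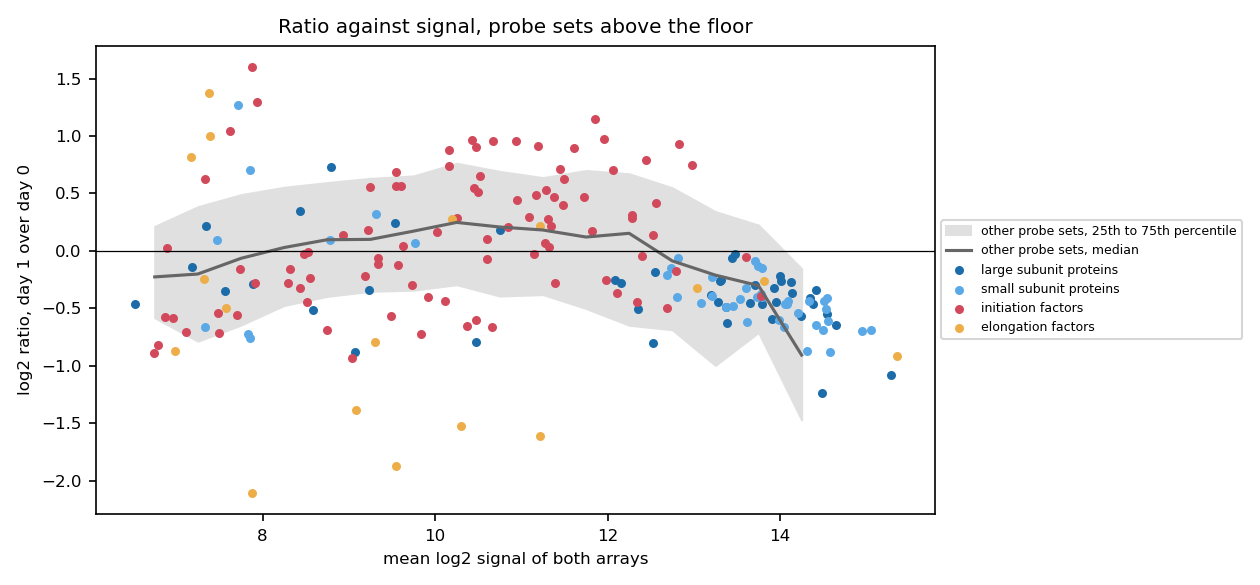
Log2 ratio of day 1 over day 0 as deposited against the mean log2 signal of both arrays, for members (coloured points) and, as a grey line and band, the median and the middle of all other probe sets above the floor. Bright ribosomal probe sets lie below 0, as does the line for other probe sets at that brightness, while initiation factor probe sets lie further left and to both sides of 0.

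Probe sets of ribosomal proteins were also more often of the kinds marked as shared between transcripts (names ending in a, s or x). This held for 66.7% of large subunit and 68.4% of small subunit probe sets, 35% of initiation factor probe sets and 22.8% of all probe sets with a single symbol. Without them 23 ribosomal protein genes remained measured, 14 of them below 0, with a median of -0.14. For the small subunit the median of the 11 genes left was 0.10. Some of these were then read from dim probe sets in place of bright ones. Rps3 was read from 135 and 326 (1.27) in place of 16343 and 12362 (-0.40). Rps18 was read from 53.8 and 84.8 (0.13) in place of 21275 and 13474 (-0.66), and Rps24 from 302 and 179 (-0.76) in place of 27593 and 15115 (-0.87). The parts of sharing and of brightness in this change were not tested. A further 118 probe sets named several genes, at least 1 of them by the rule, and were left out. Of these 107 were measured, 86 were below 0 and the median was -0.35, where 57.1% of all measured probe sets with a single symbol were below 0.

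Because ribosomal protein genes are known for their TOP tract, the annotated starts of the members were searched for it. A tract was a run of C and T that begins with C and is at least 8 bases long. It had to lie within 50 bases on either side of the start in RefSeq (GRCm38.p6), on the strand of the gene. Where a gene had several annotated starts, the longest run was taken. Of 43 ribosomal protein genes found in the RefSeq table, 36 (83.7%) had a tract, against 32.0% of the 27025 genes in the table. On the other strand the same search found 8 of the 43 and 34.4% of all genes. The share was 22 of 24 for the large subunit, 14 of 19 for the small subunit, 15 of 34 for initiation factors and 5 of 9 for elongation factors. The following windows of 30 bases show the tract in capitals at genes from both ends of the ratio order, then at Eef1a1 and Eif3f. In Rpl27a, Rps10, Rpl35, Rps6, Eef1a1 and Eif3f its first base lay between -7 and -1 from the annotated start. The Rps24 tract of 18 bases began at -36 and ended before the start, and the Rps7 tract began at base 23 after it. These 2 tracts therefore do not lie at the annotated start. The same held for tracts not printed here, in Rpl41 (from base 41 after the start), Rpl37 (base 29) and Rpl11 (base 15). The counts above include such runs, so they are not counts of tracts at the start itself.
Rpl27a (chr7:109519186-109519215, plus strand): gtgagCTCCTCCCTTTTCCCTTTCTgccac
Rps7 (chr12:28635911-28635940, minus strand): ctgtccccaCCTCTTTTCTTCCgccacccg
Rps24 (chr14:24490711-24490740, plus strand): agcggtCCTCTTTTCCTCCTCTCCagctcc
Rps10 (chr17:27635227-27635256, minus strand): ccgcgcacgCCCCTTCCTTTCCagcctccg
Rpl35 (chr2:39005115-39005144, minus strand): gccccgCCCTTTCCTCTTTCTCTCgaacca
Rps6 (chr4:86857349-86857378, minus strand): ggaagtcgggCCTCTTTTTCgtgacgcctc
Eef1a1 (chr9:78481710-78481739, minus strand): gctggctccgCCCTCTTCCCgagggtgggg
Eif3f (chr7:108934403-108934432, plus strand): gttctaggCTCTCTCTCTTTCTCggcaaga
The 30 bases at the starts of Eif4a1, Eif5 and Eef2 are shown for comparison, in lower case because no tract was found in the searched window.
Eif4a1 (chr11:69672409-69672438, minus strand): acaaagtaacgtcacgtcgagttgcagagc
Eif5 (chr12:111538086-111538115, plus strand): gagatcgacgtgcatgcgagccaatgacaa
Eef2 (chr10:81176616-81176645, plus strand): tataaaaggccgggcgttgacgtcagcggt
Eef2 is known as a TOP messenger RNA, so the absence of these letters near an annotated start says nothing about the transcript itself. The median log2 ratio of ribosomal protein genes was -0.41 for the 34 measured with a tract and -0.44 for the 7 without. By class it was -0.41 for 21 and -0.11 for 2 in the large subunit, -0.42 for 13 and -0.44 for 5 in the small subunit, 0.10 for 14 and -0.01 for 19 among initiation factors, and -0.85 for 4 and -0.60 for 4 among elongation factors, so the order differed between classes and some groups were very small. Among the genes printed above with a tract the ribosomal log2 ratios ran from -0.88 (Rps7 and Rpl27a) to 0.32 (Rps6).

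Initiation factors had a median log2 ratio of 0.12, with 23 of 42 genes above 0 and 19 (45.2%) below, against 56.7% of all genes below 0. None was at least 2-fold lower, against 13.3% of all genes, and 1 (2.38%) was at least 2-fold higher, against 10.4%. Relative to all genes the class median was higher under every one of the 11 settings run, by 0.09 to 0.33. The difference varied with the range of brightness. The 27 initiation factor genes with a mean signal of 500 to 5000 had a median of 0.22, and the 3894 other genes in that range a median of 0.15. Above 5000, 10 initiation factor genes had a median of 0.05 and 308 genes that are not members a median of -0.19. Across the 93 initiation factor probe sets that exceeded the floor on each array, the log2 ratio had a Pearson correlation of 0.31 and a Spearman correlation of 0.34 with mean log2 signal, over points that share the same arrays. The class median was above the ribosomal protein median by 0.54 as deposited, 0.31 with loess, 0.17 without shared probe sets and 0.15 with quantile normalization. Within the class the complexes differed, and the probe sets of 10 genes disagreed in sign by the rule used here, another measured probe set lying at least 0.5 on the other side of 0.

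**Figure D4:**
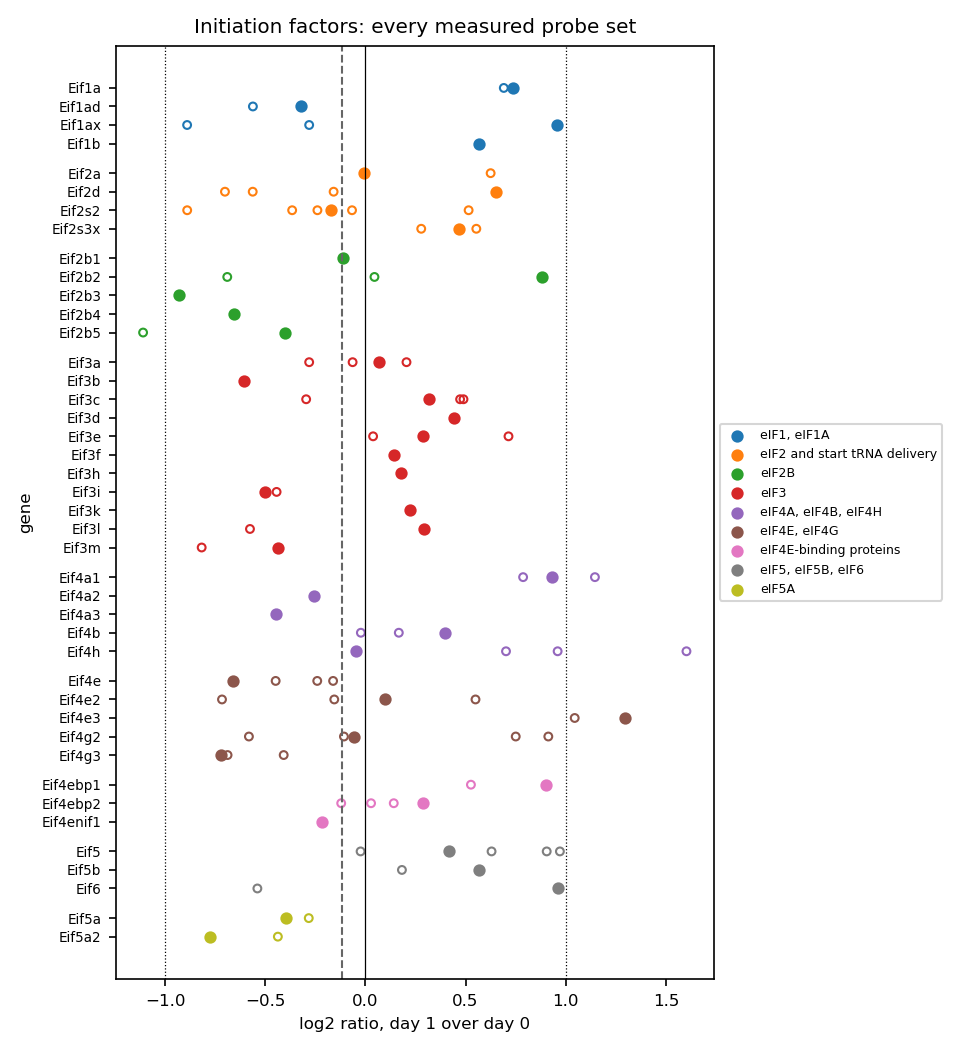
Log2 ratio of day 1 over day 0 as deposited for every measured probe set of the initiation factor genes, by complex; filled points are the probe sets used for the gene, open points the others, the dashed line the median of all genes and the dotted lines 2-fold. The 3 probe sets of Eif4a1 lie between 0.79 and 1.15, those of Eif4e all lie below 0 as deposited, and those of Eif1ax and Eif6 lie on both sides.

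The factors that prepare the small subunit for scanning were higher on day 1 in part. Eif1a and Eif1ax encode forms of eIF1A, which keeps the small subunit open for the start tRNA. Eif1a went from 889 to 1479 (0.74), and its other probe set was close, at 0.69. Eif1ax went from 1403 to 2725 (0.96), but its other probe sets went from 348 to 286 and from 144 to below the floor, so its direction was not settled by the array. Eif1b went from 614 to 909 (0.57) and Eif1ad, a nuclear protein with an eIF1A domain, from 386 to 309 (-0.32).

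The subunits of eIF2, the GTPase that carries the start tRNA, went separate ways. Eif2s3x (gamma subunit) went from 2265 to 3131 (0.47), with its 3 probe sets between 0.28 and 0.55. Eif2s2 (beta subunit) went from 7534 to 6694 (-0.17), with probe sets that disagreed. The Y-linked copy Eif2s3y had 16.8 and 1.5, under the floor on both arrays of these female mice. Of eIF2B, which reloads eIF2 with GTP, 4 of 5 subunits were below 0: Eif2b3 went from 724 to 380 (-0.93), Eif2b4 from 1665 to 1057 (-0.66), Eif2b5 from 1108 to 840.1 (-0.40) and Eif2b1 from 672 to 622 (-0.11). The fifth, Eif2b2, had 848 and 1559.9 (0.88), and another of its probe sets lay at -0.69. With median centring Eif2b3 stayed below 0 at -0.28, and with the hybridisation controls it was at 0.23.

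The scaffold eIF3 had a median of 0.18 over 11 subunits, of which 8 were above 0. Eif3a, its largest subunit, had 2414 and 2529 (0.07), and Eif3e had 4509 and 5507 (0.29). Of Eif3c, Eif3d, Eif3e, Eif3f, Eif3h, Eif3k, Eif3l and Eif3m, 7 of 8 were above 0, with a median of 0.25 and a range from -0.44 (Eif3m) to 0.44 (Eif3d). The remaining pair, Eif3b and Eif3i, which bind each other in the complex, were both below 0: Eif3b went from 1758 to 1156 (-0.60) and Eif3i from 7861 to 5562 (-0.50). Each subunit's own difference between the days was under 2-fold, and after median centring Eif3b was at 0.043.

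The paralogs of the RNA helicase of initiation lay on opposite sides of 0 as deposited. Eif4a1, the main form of the helicase that unwinds the messenger RNA ahead of the small subunit, went from 5249.9 to 10019 (0.93, 1.91-fold higher). Its other probe sets went from 4250.1 to 7334 and from 2493 to 5516. Eif4a2, its close paralog, went from 4409 to 3689 (-0.26). The paralogs differed by 1.19 on the log2 scale as deposited, 1.35 with quantile normalization, 1.29 with loess and 1.21 with the mean of all probe sets. Eif4a1 was higher on day 1 under all 11 settings. Eif4a3, a relative that works in the exon junction complex, had 106 on day 0 and was under the floor on day 1, at least 1.36-fold lower. Eif4b, which stimulates the helicase, went from 2499 to 3291 (0.40). The probe set used for Eif4h, another stimulator, had a ratio of -0.05, but its others reached 1.60.

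The cap-binding protein and its inhibitor went opposite ways as deposited. Eif4e, which binds the cap of the messenger RNA, went from 2039 to 1289 (-0.66), and all 4 of its measured probe sets were lower on day 1. Eif4ebp1, which blocks Eif4e when it is not phosphorylated, went from 2296 to 4282 (0.90), and its other measured probe set from 2077 to 2992 (0.53). The log2 ratios of Eif4ebp1 and Eif4e differed by 1.56 as deposited, 1.61 with quantile normalization, 1.63 with loess and 1.09 with the mean of all probe sets. Taken alone, Eif4e depended on the scaling, with -0.01 after median centring and 0.50 with the hybridisation controls. The related inhibitor Eif4ebp2 went from 1108 to 1349.9 (0.29), and Eif4enif1, which binds Eif4e and takes it to the nucleus, from 628 to 542 (-0.21).

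Eif4e3, a cap-binding relative of Eif4e, was the initiation factor that passed 2-fold. It went from 156 to 384 (1.30, 2.46-fold higher), and its other probe set from 137 to 283 (1.04). Both signals on day 0 were near the floor, and with a floor at the 75th percentile of all signals its ratio was at least 0.62. Eif4g3, a scaffold that joins the cap to eIF3, went from 1169.9 to 711 (-0.72). Eif4g2, which works without the cap-binding part, had 12677 and 12197 (-0.06), with probe sets from -0.58 to 0.91. Signals for Eif1, Eif2s1, Eif4g1 and Eif4ebp3 were not analysed here.

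Factors of the last steps, in which the start codon is accepted and the subunits join, had positive ratios by the probe sets used. Eif5, which makes eIF2 split its GTP, went from 5231 to 6979 (0.42), and its 5 probe sets lay between -0.02 and 0.97. Eif5b, which joins the subunits, went from 641 to 949.9 (0.57). Eif6, which keeps the large subunit free until it is mature, went from 985 to 1917 (0.96), but a second probe set went from 215 to 148 (-0.54), so its direction was not settled. Eif2d, which can deliver tRNA outside the usual route, had 1169 and 1839 (0.65), with others down to -0.70.
Eif5a, which helps ribosomes through difficult peptide bonds, went from 16114 to 12248 (-0.40). Its paralog Eif5a2 went from 133 to 4.7, at least 1.71-fold lower.

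Elongation factors had a median of -0.64 over 10 genes, of which 8 (80%) were below 0, against 56.7% of all genes. At least 2-fold lower were 2 (20%), against 13.3% of all genes, and 1 (10%) was at least 2-fold higher, against 10.4%. The median of this whole class, with the enzymes and Eef1e1, lay below that of all genes under all 11 settings run, by -0.69 to -0.26. It was itself above 0 with median centring (0.093) and with the hybridisation controls (0.61). The class is small, and as deposited the factors proper had a median of -0.32 over 5 genes against -0.87 over 5 for the kinase, the methyltransferases and Eef1e1. The genes past 2-fold were all in the second set. With quantile normalization the factors proper did not lie below all genes as a group. Their ratios there were 0.16 (Eef1a1), 0.09 (Eef1d), 0.0016 (Eef2), -0.22 (Eef1b2) and -0.91 (Eef1a2), beside a median of -0.02 for all genes.

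Of the factors proper, Eef1a1, which carries aminoacyl-tRNA to the ribosome, went from 57565 to 30538 (-0.91, 1.89-fold lower). On both arrays its probe set was above 50% of the highest signal of the array. Its ratio was -0.54 with loess and 0.16 with quantile normalization, so its direction depended on the scaling. Eef2, which moves the ribosome by a codon, went from 15755 to 13120 (-0.26). The difference between Eef1a1 and Eef2 was -0.65 as deposited, -0.46 with loess and 0.16 with quantile normalization. Eef1b2, a subunit of the exchange factor that reloads eEF1A, went from 9414 to 7534 (-0.32). Eef1d, another subunit of it, went from 2209 to 2571 (0.22), while a further probe set went the other way, from 878 to 336. Eef1a2, the form known from muscle and neurons, went from 829 to 479.8 (-0.79). Eef1g was not analysed here.

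Eef2k, the kinase that inhibits Eef2 and so slows elongation, was lower on day 1 by all of its probe sets. These 3 probe sets went from 2134 to 744, from 1426 to 391 and from 488 to 114 (log2 ratios of -1.52, -1.87 and -2.10), all at least 2-fold lower. With median centring the ratio of the probe set used was -0.87, and with the hybridisation controls -0.36, so it was lower on day 1 under each scaling but past 2-fold only as deposited, with loess and with quantile normalization.
Eef1e1 went from 4170.4 to 1369 (-1.61, 3.05-fold lower), the lowest ratio among the probe sets used for members, and was at -0.96 with median centring and -0.44 with the hybridisation controls. Of the methyltransferases that modify eEF1A, Eef1akmt2 went from 103 to 269 (1.38, 2.60-fold higher), close to the floor on day 0, Eef1aknmt from 171 to 93.7 (-0.87) and Eef1akmt1 from 227 to 161 (-0.50), the last with another probe set at 1.00.

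**Figure D5:**
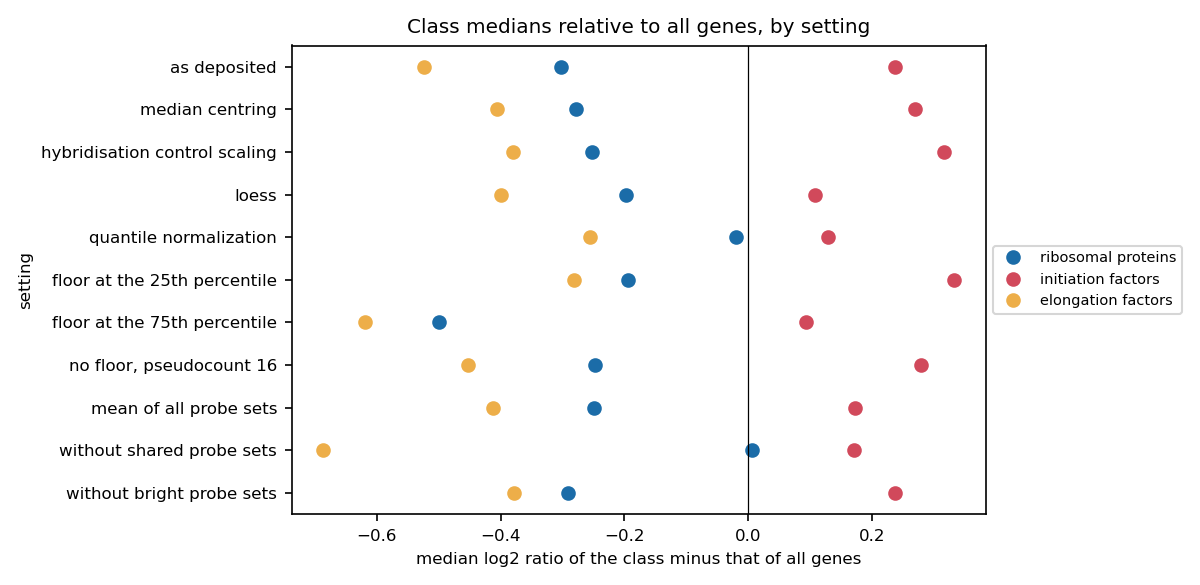
Median log2 ratio of ribosomal proteins (blue), initiation factors (red) and elongation factors (yellow) minus the median of all genes, under the 11 settings run. Initiation factors lie above 0 (0.09 to 0.33) under all of them, and ribosomal proteins lie between -0.50 and 0.01. The elongation factor class, with the enzymes and Eef1e1 that the name rule takes in, lies below 0 (-0.69 to -0.26) under all of them.

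Other genes of the pathway give the surroundings of these classes. As a measure for their counts, 13.3% of all genes were at least 2-fold lower as deposited and 10.4% at least 2-fold higher, and 56.7% had a ratio below 0. Of 35 genes of ribosome biogenesis, all were measured, 22 were above 0 and 13 (37.1%) below, and the median was 0.25. At least 2-fold higher were 5 of them: Heatr1 (82.7 and 419, 2.34), Sbds, which helps to release Eif6 from the large subunit (475 and 1774, 1.90), Rrp9 (under the floor on day 0, at least 3.70-fold higher), Ncl, the nucleolar protein nucleolin (846 and 2139.7, 1.34), and Polr1c (275 and 589, 1.10). Another probe set of Heatr1 lay at -0.90. The lowest were Polr1b (168 and under the floor on day 1, at least 2.16-fold lower), Bysl (-0.63) and Nob1 (-0.57). The biogenesis genes and the ribosomal proteins thus had medians on opposite sides of 0 as deposited, 0.25 and -0.42. With median centring both lay on the same side, 0.90 and 0.22. Their brightness differed, with median signals of 326 and 494 for biogenesis genes and 16343 and 13003 for ribosomal proteins. The 12 measured ribosomal protein genes with a mean signal up to 5000 had a median ratio of 0.09. The part of brightness in this contrast was not tested.

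Termination and recycling factors were near 0, with a median of -0.01 over 12 measured genes of 13. None was at least 2-fold lower, against 13.3% of all genes, and 1 was at least 2-fold higher, against 10.4%. That gene was Paip2, which keeps the poly(A)-binding protein from initiation (2394 and 6468, 1.43). Next came Pabpc4 (0.59) and Paip1 (0.40), and the lowest were Pelo (-0.31), Pabpc1 (-0.30) and Hbs1l (-0.25).

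The 27 kinases and regulators of translation found had a median of -0.09. At least 2-fold lower were 3, against 13.3% of all genes, and 3 were at least 2-fold higher, against 10.4%. The lower ones were Pdcd4, an inhibitor of the eIF4A helicase (8139.6 and 2338, -1.80), Ppp1r15b, the standing phosphatase subunit for eIF2 (2752 and 1185, -1.22), and Deptor, an inhibitor of mTOR (5623 and 2595, -1.12). The higher ones were Sesn3, an inhibitor of mTOR signalling (538 and 2334, 2.12), Ppp1r15a, the stress-induced phosphatase subunit for eIF2 (109.7 and 337, 1.62), and Sesn1 (95.7 and 196, 1.04, with another probe set at -0.71). Both counts, 3 of 27, were near the shares of all genes. As deposited, Pdcd4 was lower and its target Eif4a1 higher, and the phosphatase subunits lay on opposite sides of 0. A link within these pairs was not tested. With the hybridisation controls the median of this list was 1.11.

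Other TOP genes had a positive median, unlike the ribosomal proteins as deposited. The median signals of these other TOP genes were lower, 1697 on day 0 and 3929 on day 1, against 16343 and 13003 for ribosomal proteins. Of 11 measured, 7 were above 0 and 4 (36.4%) below, against 56.7% of all genes below 0, and the median was 0.35. At least 2-fold lower were 2, against 13.3% of all genes, and 2 were at least 2-fold higher, against 10.4%. Tpt1 went from 66686 to 32309 (-1.05) and Hnrnpa1 from 1268 to 605 (-1.07, with another probe set at 0.39). Nap1l1 (641 and 2075, 1.69), Vim (1624 and 3929, 1.27) and Gas5 (887 and 1617, 0.87) were the highest. Fau (-0.20) and Rpsa (0.02), which also encode ribosomal proteins but bear other names, were close to 0.

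The precision of a gene's ratio can only be gauged between its probe sets, which is not the error between mice. Over 50 members with several probe sets above the floor, the pooled SD between probe sets of a gene was 0.44 on the log2 scale, against 0.56 over 3943 genes of the array. It was 0.33 for ribosomal proteins and 0.47 for initiation factors.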

How the data were processed

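Per the labels, the authors made the deposited values with the Affymetrix Microarray Suite (MAS5): 1 signal per probe set, an intensity on a linear scale. No source used here gives their scaling target; both deposited columns had a mean of 250 after 2% was trimmed at each end. Of 45101 probe sets, 64 were controls, 34945 had 1 gene symbol in the platform annotation, 932 several and 9160 none. Symbols were updated through the gene identifier with RefSeq (GRCm38.p6), which held 34741 of them.

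From these, log2 ratios above a floor of 77.7 were computed with Python 3.11.15 and pandas 2.3.3. The computation of ratios was also run on simulated data, in which both arrays came from the day 0 signals and only genes well above the floor were changed. These data did not copy the different signal ranges of the real arrays, so they say nothing about scaling or about genes near the floor. With 1 array per day no test was run, and the number of arrays limits the precision. "Called" genes were at least 2-fold different; alternatives changed scaling, floor (25th or 75th percentile, or a pseudocount of 16), probe set choice and threshold. Loess used a span of 0.3, and 15 hybridisation control probe sets, whose median log2 ratio was -1.16, gave another scaling.

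Named were, per class, the 5 highest and 5 lowest genes above the floor on both arrays, all genes past 2-fold, a list of well-known members, and the 3 highest and lowest of each related list; Eif2b1, Eif2b2, Eif2d, Eif2s2, Eif2s3x, Eif1b, Eif1ad, Eif4a3, Eif4h, Eif4enif1, the remaining eIF3 subunits, Ncl, Polr1c and Rpsa complete these sets and were in part chosen after their values were seen. Members and lists were chosen with earlier results of these data known. Further marker lists had medians of -0.25 (myoepithelium), -0.10 (adipocyte), 0.45 (fibroblast), 1.08 (lymphocyte), -0.57 (endothelium), -0.88 (erythroid) and 0.15 (skeletal muscle).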

Additional observations from a re-analysis of the deposited data

How the results depend on the processing

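No paired analysis was possible because each day has 1 array. With median centring the median log2 ratios were 0.27 for the large subunit, 0.21 for the small subunit, 0.77 for initiation factors, 0.093 for elongation factors, 0.76 for termination and recycling, 0.90 for ribosome biogenesis, 0.59 for the kinases and regulators and 1.00 for other TOP genes, and 0 members were at least 2-fold lower and 17 higher. With the hybridisation controls they were 0.79, 0.73, 1.30, 0.61, 1.28, 1.36, 1.11 and 1.55 in the same order. There 0 members were lower and 40 higher, and Rpl41 was at 0.080. Of all genes, 670 of 12947 were lower and 3687 higher with median centring. With the hybridisation controls 285 of 12959 were lower and 6398 higher. Both settings multiply 1 array by a factor before the floor is set; genes near the floor, or read from another probe set (Eef1akmt1, 1.65 with median centring), move by other amounts. The termination and recycling median, -0.01 as deposited, was 0.0067 with quantile normalization, 0.11 with the mean of all probe sets and 0.31 without shared probe sets. Without shared probe sets the small subunit median was 0.10, that of other TOP genes 0.86, and 4 members were at least 2-fold higher. Of all 11485 genes measured there, 1098 were at least 2-fold higher. Fewer genes are measured under this setting, some of them from dim probe sets in place of bright ones, and the cause was not tested otherwise. The count of members at least 2-fold lower, 3 as deposited, was 5 with the floor at the 25th percentile and 5 with a pseudocount of 16. It was 10 of 217 when probe sets were counted and 25 of 99 genes at 1.5-fold. Of all genes, 4306 of 16547 were lower with the floor at the 25th percentile and 3051 of 13239 with the pseudocount. The count at least 2-fold higher, 2 as deposited, was 0 with the floor at the 75th percentile, 6 of 217 for probe sets and 10 of 99 genes at 1.5-fold. With the floor at the 75th percentile 852 of all 7850 genes were higher. Under loess the large subunit median was -0.15 and the small subunit median -0.25; 3 members were at least 2-fold lower there too, but Rpl41 (-0.72) was not among them and Eif2b3 (-1.02) was. Without bright probe sets the ribosomal median was -0.41. Signals near the floor, as for Eif4e3, Eef1akmt2, Rps27 and Eif5a2, limit those ratios, and 2 pools give no error between mice.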
